A study of Rattus norvegicus with 6 samples.

Results

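The genes described here encode the kinases that stop or slow the cell cycle when DNA is damaged or replication stalls, the adaptor claspin, and the phosphatases on which these kinases converge. They are *Atm*, *Atr*, *Chek1*, *Chek2*, *Clspn*, *Wee1*, *Pkmyt1*, *Cdc25a*, *Cdc25b* and *Cdc25c*. They were chosen by name and without a filter on their values, but with earlier results of these data known. A probe was assigned to a gene where the array files gave a probe that is not a control that gene's symbol. All 10 genes were on the array, with 16 probes between them, out of 17960 genes with a RefSeq symbol and 45598 probes in all. A single probe represented 5 of the genes, and the other 5 had several.

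Gene expression was measured in replicating and quiescent β-cells of the rat. Islets of young adult male Wistar rats, pooled from 4 animals per preparation, were cultured overnight at basal glucose with EdU, a thymidine analogue that is built into newly made DNA. Dispersed islet cells were stained with Newport Green, a zinc-binding dye, fixed with paraformaldehyde and sorted by size, granularity, Newport Green and EdU. EdU-positive cells of the β-cell gate were the replicating group and EdU-negative cells of that gate the quiescent group, so both groups had been exposed to EdU, dye and fixative. Each of 3 islet preparations gave 1 sample of each group, or 6 samples on 6 arrays of 1 slide. The animals of a preparation cannot be separated, and EdU marks any cell that passed through S phase during the culture, wherever in the cycle it stood when sorted.

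ATM and ATR are large kinases at the head of the DNA damage response. ATM acts mainly at double-strand breaks and ATR at stalled replication forks and single-stranded DNA, and they activate the effector kinases CHK2 and CHK1 respectively, the latter with the help of claspin. CHK1 and CHK2 phosphorylate the CDC25 phosphatases, which marks them for destruction or keeps them from their target. That target is the inhibitory phosphate that WEE1 and PKMYT1 place on CDK1: the kinases put it on and hold the cell before mitosis, and the CDC25 phosphatases take it off. In unperturbed cycling cells the same proteins set the pace of S phase and the time of mitotic entry, and in adult β-cells, which divide rarely, most of the cells are outside the cycle.

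Values are the deposited log2 values after background correction and quantile normalization, and a ratio is a difference of log2 values, replicating minus quiescent. Where several probes bore 1 symbol, the brightest on average over the 6 arrays stood for the gene and the others are given beside it. The level of one probe cannot be set against that of another, so no order of levels between genes is given. A probe was called when a paired limma fit over the islet preparations gave it an unadjusted p no larger than 0.05 and a log2 ratio of 1 or more in size, which are the thresholds of the study. These thresholds called 8.52% of all probes, 4.38% higher and 4.14% lower. By the brightest probe of a gene, 5.58% of 17960 genes were called higher and 2.7% lower. After Benjamini-Hochberg adjustment over all probes limma called 0 of 45598, and 4276 probes (9.38%) had an unadjusted p of at most 0.05. Every call below is therefore a call at an unadjusted p. The samples of a group came from separate islet preparations, and their number, 3 per group, limits the precision of every value.

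The arrays of the 2 groups differed in spread. Pearson's r across all probes, which are not independent replicates, was 0.967 to 0.986 between replicating arrays and 0.647 to 0.868 between quiescent arrays. By outlier spots the quiescent array of preparation 2 stood apart, with 1583 marked against 252 to 299 on the other arrays. The r of 0.647 was between the quiescent arrays of preparations 2 and 3, whose r to that of preparation 1 were 0.822 and 0.868. Without preparation 2, *Pkmyt1* was called with a ratio of 2.54, *Wee1* (0.95) and *Chek1* (0.82) were not called, and the *Atr* ratio was 0.22. Without preparation 3, *Pkmyt1* (3.67), *Wee1* (1.73), *Chek1* (1.48) and *Atm* (1.43) were called. Without preparation 1 only *Pkmyt1* (2.65) was. Of all probes, 509, 1449 and 4940 were called higher without preparations 1, 2 and 3, against 1997 with all 3. The share of probes well above background was 80.8% to 87.3% on the replicating arrays. On the quiescent arrays it was 96.4%, 98.4% and 85.7% in preparations 1, 2 and 3. The defining β-cell markers were present in both groups: 9 of 9 β-cell markers on the array were well above background on all 6 arrays, 1 was called lower (*Mafa*, log2 ratio -1.01) and their summed signal was 250322 to 318890 in replicating and 157302 to 350544 in quiescent samples. Of the 9, 3 were lower without overlap, against 6.21% of all genes, and 0 higher, against 10.5%. Their median log2 ratio was -0.22. Markers of other cells also moved with the groups. The shares to set beside these marker counts are 5.58% of all genes called higher and 2.7% lower. Of the α-cell markers 2 of 5 were called higher in the replicating samples, with a summed signal of 21878 to 89271 against 5553 to 16678. The same held for 2 of 3 δ-cell markers (1353 to 2068 against 393 to 1188), the PP-cell marker *Ppy* (3836 to 7774 against 1661 to 3156), 3 of 8 fibroblast and stellate cell markers (12627 to 36641 against 4225 to 5867) and 2 of 4 leukocyte markers (2262 to 2808 against 1149 to 1606). It also held for 1 of 4 acinar markers, whose sums overlapped, and for 0 of 4 endothelial and 0 of 3 duct markers. Of all marker genes on the array, *Lum*, *Ptprc* and *Krt19* were the only ones not well above background on all 6 arrays. The 3 cycling markers *Mki67*, *Pcna* and *Top2a* were all called higher, with sums of 8894 to 11087 against 1837 to 5294. The part of these other cells in the results below was not tested. In sorted bulk samples, fewer cells that carry a transcript and less of it per cell cannot be told apart.

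Of the 10 genes, 3 were called higher in replicating β-cells (30%, against 5.58% of all genes) and 0 were called lower (against 2.7%). The called genes were *Pkmyt1*, *Wee1* and *Chek1*, whose log2 ratios were 2.95, 1.38 and 1.09. Both kinases that phosphorylate CDK1 were among them, with 1 of the 2 effector kinases. No apical kinase (0 of 2), no CDC25 phosphatase (0 of 3) and not claspin was called. None of the 10 passed the adjusted p, and the smallest adjusted p in limma was 0.411, of *Pkmyt1*. The median log2 ratio of the 10 genes was 0.78, against -0.01 for all genes by the same rule. By preparation the medians were 0.54, 1.10 and 0.60. With arrays scaled to their 75th percentile the median of the 10 was 0.48 (normexp values) or 0.52 (processed signal) and 9 of 10 ratios were above 0, while the median of all probes moved from -0.08 to -0.41 and -0.74. The replicating and quiescent values did not overlap for 3 of the 10 genes, the called ones, while 10.5% of all genes were higher without overlap and 6.21% lower. All 10 fitted ratios were above 0, as were 49.2% of those of all genes. A ratio above 0 in every preparation was seen for 4 of the 10, the called genes and *Cdc25c*, against 17.4% of all genes.

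**Figure D1:**
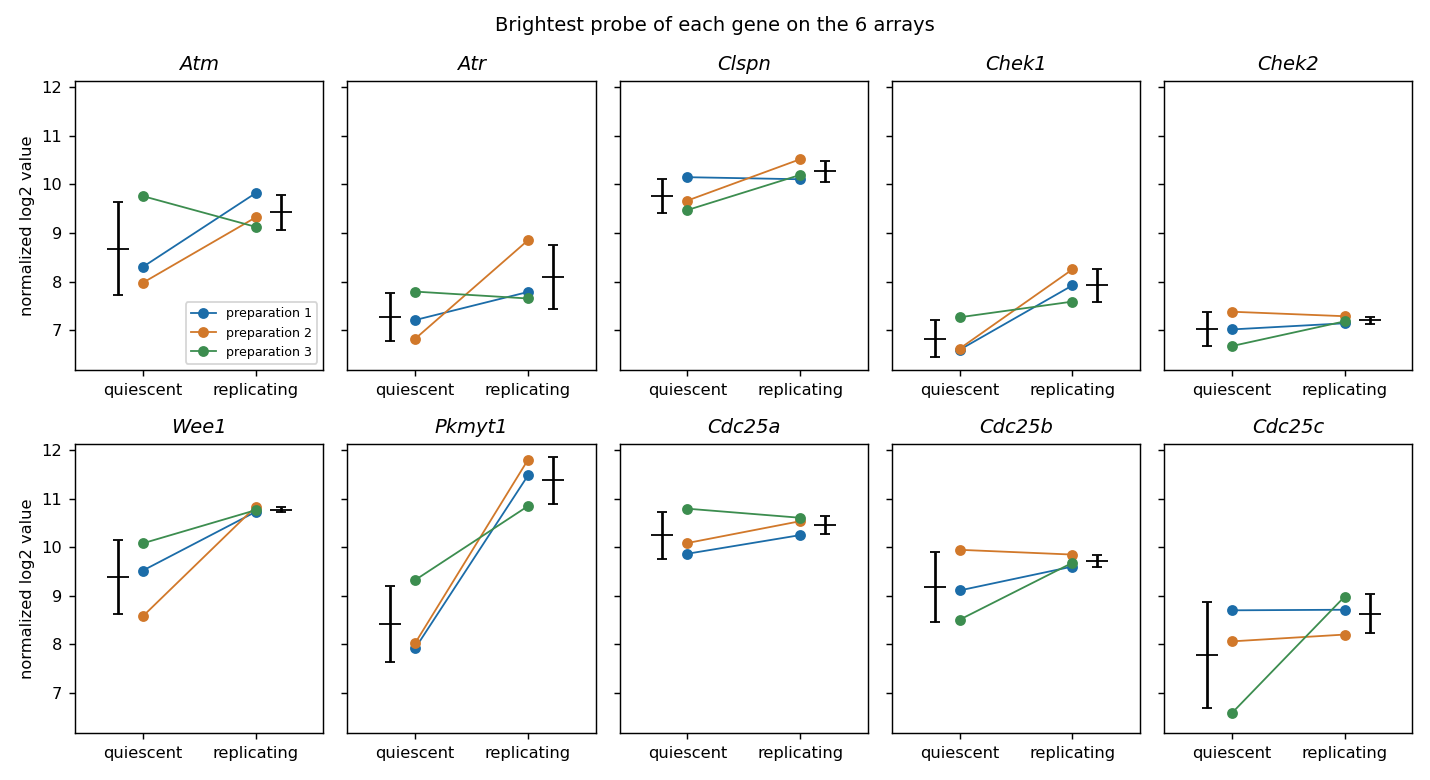
Normalized log2 value (vertical axis) of the brightest probe of each gene in quiescent and replicating β-cells (horizontal axis), with the 2 samples of a preparation joined by a coloured line and the mean ± SD (n = 3) as black bars beside them. The groups are apart for *Chek1*, *Wee1* and *Pkmyt1*, and overlap in the other 7 panels.

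*Pkmyt1* encodes a membrane-bound kinase of the endoplasmic reticulum and Golgi that phosphorylates CDK1 and keeps it inactive. Its probe read 11.48, 11.80 and 10.84 in the replicating samples of preparations 1, 2 and 3. In the quiescent samples it read 7.91, 8.02 and 9.32. All replicating samples lay above all quiescent ones, and the pair of preparation 3 stood closest together because its quiescent sample was the highest and its replicating sample the lowest. The log2 ratios were 3.56, 3.78 and 1.52. The fitted ratio was 2.95 (SE 0.54, 95% interval 1.57 to 4.33), a 7.75-fold higher signal, with a limma p of 0.00255. This ratio stood above those of 99.7% of all probes. *Pkmyt1* kept both thresholds under every processing tried, with ratios from 2.54 to 3.67, and without any 1 preparation. The probe lies at chr10:12993623-12993682 of rn4 on the plus strand.

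*Wee1* encodes the nuclear counterpart, which also phosphorylates CDK1 and keeps it inactive. Its brighter probe read 10.73, 10.83 and 10.76 in the replicating samples, a spread (SD 0.05) smaller than that of the replicating samples at any other of the 16 probes. In the quiescent samples it read 9.52, 8.58 and 10.08. The groups did not overlap, and the quiescent sample of preparation 3 came nearest to the replicating level. The log2 ratios were 1.21, 2.26 and 0.68. This gave a fitted ratio of 1.38 (SE 0.42, 95% interval 0.31 to 2.46), or 2.61-fold, with a limma p of 0.0208 and an adjusted p of 0.483. The call was lost without preparation 1 (ratio 1.47, p 0.0889), without preparation 2 (ratio 0.95, p 0.0526), with the processed signal scaled to the 75th percentile (1.19) and with the median over both probes (1.20).

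The second *Wee1* probe was not called. It read 9.24, 8.99 and 8.49 in replicating samples against 8.11, 6.23 and 9.32 in quiescent samples. Its groups overlapped, since the highest value was that of the quiescent sample of preparation 3. The log2 ratios were 1.13, 2.76 and -0.83, and the fitted ratio was 1.02 (SE 0.71, limma p 0.212). The 2 probes thus had the same order of preparations, with preparation 2 the largest ratio and preparation 3 the smallest. On rn4 the brighter probe spans chr1:167785049-167785315, more bases than its length of 60, so that its match is split over a gap in the genome as across an exon junction. The dimmer one lies 2426 bases further along the plus strand. The sequence of the brighter probe, which gave the call, is printed here 5′ to 3′ as the array files hold it.
Wee1, brighter probe: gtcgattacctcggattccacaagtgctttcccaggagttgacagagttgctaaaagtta

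The effector kinases CHK1 and CHK2 differed in their calls. *Chek1* read 7.92, 8.25 and 7.59 in the replicating samples and 6.59, 6.62 and 7.26 in the quiescent samples. The means were 7.92 ± 0.33 and 6.83 ± 0.38 (SD, n = 3), and the groups did not overlap. On the quiescent arrays the lowest values well above background were 6.04, 5.91 and 6.31, not far below those of *Chek1*. The quiescent sample of preparation 3 lay 0.32 below its replicating partner, against 1.33 and 1.63 in preparations 1 and 2. The fitted ratio was 1.09 (SE 0.39, 95% interval 0.09 to 2.10), or 2.14-fold, with a limma p of 0.0377 and an adjusted p of 0.483. It fell short of a threshold without preparation 1 (ratio 0.98, p 0.193) and without preparation 2 (ratio 0.82, p 0.100). The same held when the arrays were scaled to their 75th percentile in place of quantile normalization (0.59) and with the processed signal scaled that way (0.90). With quantile-normalized normexp values at an offset of 0 the fitted ratio was 1.57 (limma p 0.0311), so its size depended on the background correction. Its single probe lies at chr8:37954886-37954946 of rn4 on the minus strand.

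*Chek2* was not called by either probe. The brighter probe read 7.14, 7.29 and 7.18 in replicating samples and 7.01, 7.38 and 6.67 in quiescent samples. The groups overlapped, and the log2 ratios were 0.13, -0.09 and 0.51. Together they gave a fitted ratio of 0.18 (SE 0.33, 95% interval -0.65 to 1.01, limma p 0.603), so that the interval reached a 2-fold difference only at its upper end. The sign of this ratio turned when the arrays were scaled to the 75th percentile, to -0.36 with normexp values and -0.51 with the processed signal. The dimmer probe read 6.83, 7.75 and 6.61 against 6.83, 6.42 and 6.10, and was not well above background in the quiescent sample of preparation 3. Its ratios were 0.00, 1.34 and 0.52, and the fitted ratio was 0.62 (SE 0.39, limma p 0.174). The probes, which are assigned to different transcript records, disagreed most in preparation 2, where one gave -0.09 and the other 1.34.

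The nearest ends of the *Chek2* probes lie 39 bases apart on chromosome 12 of rn4. The brighter one is split over chr12:45935141-45939179 and the dimmer one lies at chr12:45939219-45939278. They are printed because 2 stretches with ends so near each other gave unequal fitted ratios, a difference that was not tested. Both are 5′ to 3′ as the array files hold them.
Chek2, brighter probe: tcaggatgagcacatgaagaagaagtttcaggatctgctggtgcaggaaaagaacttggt
Chek2, dimmer probe: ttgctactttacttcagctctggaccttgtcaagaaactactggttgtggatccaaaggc

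Neither apical kinase was called. *Atm* read 9.82, 9.32 and 9.13 in replicating samples and 8.30, 7.98 and 9.76 in quiescent samples. In preparations 1 and 2 the replicating sample was higher, by 1.52 and 1.35, and in preparation 3 the quiescent sample was (ratio -0.63). The fitted ratio was 0.74 (SE 0.53, 95% interval -0.60 to 2.09, limma p 0.216). Without preparation 3 it was 1.43 (limma p 0.0198), past both thresholds. That fit called 4940 of all probes higher, against 1997 with all 3 preparations. The second *Atm* probe, 8237 bases away on the same chromosome, read 6.63, 6.50 and 6.80 against 6.05, 6.00 and 6.78. It was well above background on 2 arrays of each group, and its fitted ratio was 0.37 (SE 0.33, limma p 0.314).

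*Atr* read 7.79, 8.85 and 7.65 in replicating samples and 7.21, 6.82 and 7.79 in quiescent samples. The groups overlapped, and preparation 2 gave most of the difference, with a ratio of 2.03 against 0.58 and -0.14 in preparations 1 and 3. Over all 3 the fitted ratio was 0.82 (SE 0.50, 95% interval -0.46 to 2.10, limma p 0.161). On rn4, *Atm*, *Atr*, *Chek1* and *Cdc25a* all lie on chromosome 8, with the brighter *Atm* probe at chr8:56892420-56892479 and the *Atr* probe at chr8:101016197-101016256.

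*Clspn* encodes claspin, which brings CHK1 to ATR at stalled forks. Its 3 probes, all on chromosome 5 of rn4, did not share a sign. The brightest read 10.11, 10.52 and 10.20 in replicating samples and 10.15, 9.67 and 9.47 in quiescent samples. Its groups overlapped through preparation 1, where the ratio was -0.04, against 0.85 and 0.72 in preparations 2 and 3. The fitted ratio was 0.51 (SE 0.35, 95% interval -0.39 to 1.41, limma p 0.206). The second probe, at chr5:145966722-145966781, read 8.27, 8.53 and 7.82 against 9.46, 8.47 and 8.13. Its ratios were -1.19, 0.06 and -0.30, and its fitted ratio was -0.48 (SE 0.39, limma p 0.268). It is assigned to another transcript record than the brightest and the third probe. The third had a fitted ratio of 0.48 (SE 0.34, limma p 0.216), with 1 replicating sample not well above background. With the per-array median of its probes, *Clspn* turned to -0.48, because the median takes the probe of middle brightness. The brightest probe, at chr5:145947594-145947653 on rn4, and the probe with the opposite sign are printed 5′ to 3′ as the array files hold them, since the sign of the *Clspn* ratio depends on which is read.
Clspn, brightest probe: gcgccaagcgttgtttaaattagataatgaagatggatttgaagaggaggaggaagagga
Clspn, second probe: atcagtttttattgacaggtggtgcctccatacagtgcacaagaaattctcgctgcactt

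None of the 3 CDC25 phosphatases was called. *Cdc25a*, whose product acts on CDK2 at the start of S phase as well as on CDK1, read 10.25, 10.53 and 10.60 in replicating samples and 9.86, 10.08 and 10.79 in quiescent samples. The ratios were 0.38, 0.45 and -0.19, and the fitted ratio was 0.22 (SE 0.33, 95% interval -0.63 to 1.06, limma p 0.545). Its groups overlapped, and the highest value of all was that of a quiescent sample. *Cdc25b*, which starts the activation of CDK1 at the centrosome, read 9.60, 9.85 and 9.68 against 9.11, 9.94 and 8.50. Its ratios were 0.49, -0.10 and 1.17, and the fitted ratio was 0.52 (SE 0.38, 95% interval -0.45 to 1.50, limma p 0.230). Here preparation 3 had the largest ratio, while in *Wee1*, *Pkmyt1* and *Chek1* it had the smallest.

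*Cdc25c*, a phosphatase that works in a positive feedback with CDK1 at mitosis, was higher in all 3 preparations but by very unequal amounts. Its brighter probe read 8.71, 8.20 and 8.98 in replicating samples and 8.70, 8.06 and 6.58 in quiescent samples. The ratios were 0.01, 0.14 and 2.40, so that the fitted ratio of 0.85 (SE 0.57, 95% interval -0.61 to 2.31, limma p 0.195) came from preparation 3. The groups overlapped, since the quiescent samples of preparations 1 and 2 read nearly as their replicating partners. The second probe went the other way in preparation 2, where its quiescent sample read 10.47 against 6.53 and 6.76 in the other two. Its replicating samples read 7.06, 7.16 and 7.61. The fitted ratio of this probe was -0.65 (SE 0.89, limma p 0.498). It has no rn4 position and is assigned to another transcript record than the brighter probe.

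**Figure D2:**
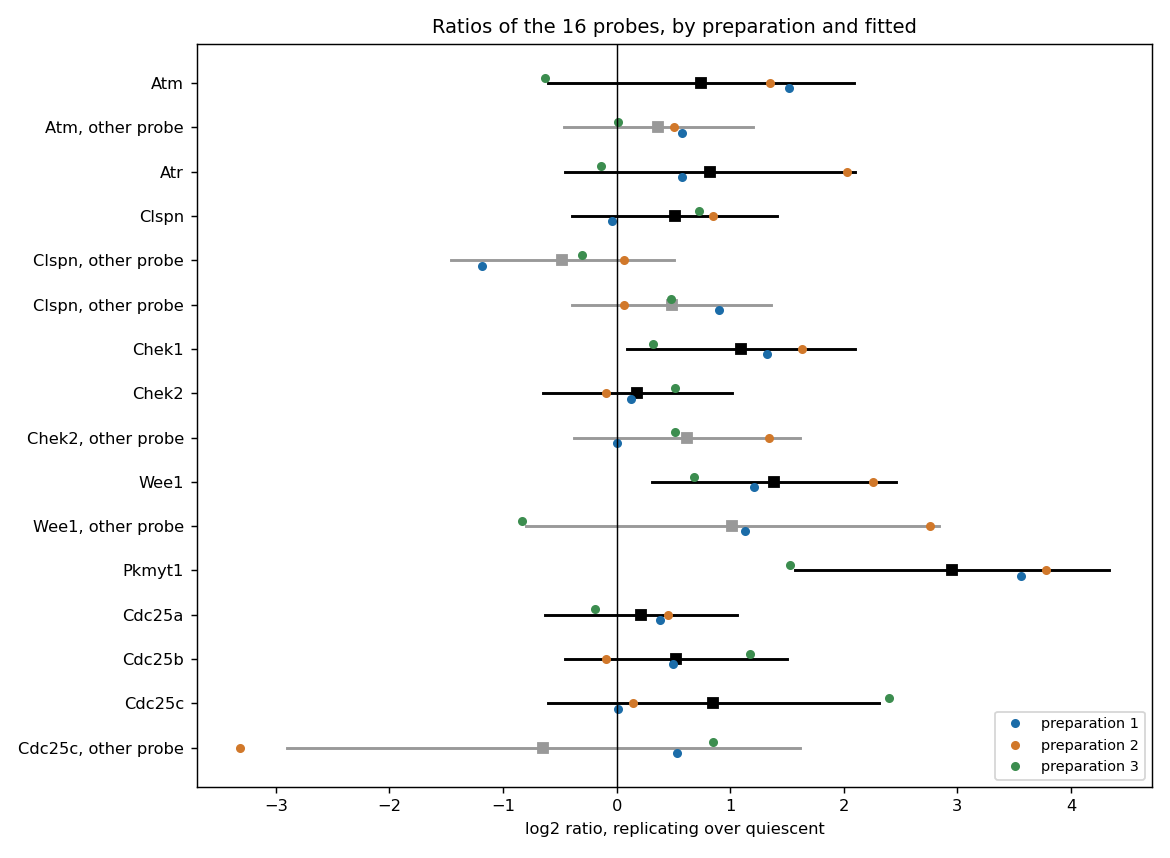
Log2 ratio of replicating over quiescent (horizontal axis) for each of the 16 probes, grouped by gene (vertical axis). Squares are fitted ratios with 95% intervals, black for the brightest probe of a gene and grey for the others, and coloured points are the 3 preparations. Of the 16 fitted ratios 14 are above 0, and the intervals of the *Chek1* probe, the brighter *Wee1* probe and the *Pkmyt1* probe lie above 0.

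Over the 16 probes, 3 were called higher and 0 lower, against 4.38% and 4.14% of all probes. These 3 were the only ones without overlap between the groups, all of them higher, against 8.89% of all probes higher and 7.11% lower without overlap. Fitted ratios were above 0 for 14 probes and below 0 for 2, the second *Clspn* and the second *Cdc25c* probe. The quiescent samples spread more than the replicating ones for 13 of the 16 probes, against 85.9% of all probes. Of the 10 genes, 9 had a ratio above 0 in preparation 1, 8 in preparation 2 and 7 in preparation 3. All 16 probes had a length of 60 bases and a single spot, with a GC content of 35.0% to 53.3%, and 13 were well above background on all 6 arrays.

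Genes with like roles were set against each other within each preparation, in 6 pairs. The largest mean difference of log2 ratios was that of *Pkmyt1* minus *Wee1*, which was 2.35, 1.52 and 0.84 in the 3 preparations, with a mean of 1.57 (SD 0.76, 95% interval -0.31 to 3.45). It was positive in 3 of 3, and its exact two-sided sign-flip p of 0.25 is the smallest that 3 preparations allow. *Chek1* minus *Chek2* was 1.20, 1.73 and -0.19, with a mean of 0.91 (SD 0.99, 95% interval -1.54 to 3.37, exact p 0.5). A call of *Chek1* and none of *Chek2* therefore does not show that their ratios differed. *Atr* minus *Atm* had a mean of 0.08 (SD 0.89, 95% interval -2.13 to 2.28, exact p 1), with -0.94, 0.68 and 0.49 in the preparations. Among the phosphatases the means were 0.33 for *Cdc25c* minus *Cdc25b* (SD 0.86), 0.64 for *Cdc25c* minus *Cdc25a* (SD 1.69) and 0.31 for *Cdc25b* minus *Cdc25a* (SD 0.97), with exact p of 0.75, 1 and 0.75. The adjusted p over the 6 pairs was 1 for each.

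The proximal promoters of 7 of the 10 genes were found by symbol in a RefSeq table of build GRCr8, each with 250 bases before and 50 after the start. Those of *Chek2*, *Wee1* and *Pkmyt1* were not matched. They were searched on both strands for letters known from cell-cycle promoters: TTTGAA (the cell cycle homology region), CCAAT, and TTTGGCG or TTTCCCG (the core of an E2F site). Of the 7, 4 held an E2F core (*Atm*, *Chek1*, *Clspn* and *Cdc25a*), against 4.96% of 33469 promoters of the same length. CCAAT was in 5, against 37.5% of all, and *Cdc25c* held 4 copies. TTTGAA was in 1, *Cdc25c*, at 60 bases upstream, against 18.3% of all.

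*Chek1*, the called gene with a matched promoter, and *Cdc25a*, an uncalled gene of the same chromosome, both hold the E2F core, at different distances. In *Chek1* the letters occur on both strands, starting 32 and 27 bases upstream and overlapping each other. In *Cdc25a* they start 236 bases upstream, with a CCAAT box on the minus strand at 250. The 250 bases before each start are printed 5′ to 3′ along the gene, with matches in capitals. *Chek1* is chr8:44629844-44630093 on the minus strand and *Cdc25a* is chr8:118742798-118743047 on the plus strand of GRCr8. A match is a description of these letters only, and their presence did not separate the called gene from the uncalled one.
Chek1 promoter: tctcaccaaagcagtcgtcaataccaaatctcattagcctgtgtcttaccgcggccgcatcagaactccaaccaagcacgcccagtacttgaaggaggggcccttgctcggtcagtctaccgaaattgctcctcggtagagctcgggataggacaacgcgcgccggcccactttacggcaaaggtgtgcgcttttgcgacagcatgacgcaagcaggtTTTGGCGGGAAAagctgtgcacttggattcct
Cdc25a promoter: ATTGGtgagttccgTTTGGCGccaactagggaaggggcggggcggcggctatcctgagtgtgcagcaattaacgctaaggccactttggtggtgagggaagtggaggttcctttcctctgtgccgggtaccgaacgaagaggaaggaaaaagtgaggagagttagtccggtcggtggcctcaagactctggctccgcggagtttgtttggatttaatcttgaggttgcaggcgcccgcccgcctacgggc

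The genes around this pathway were taken from 4 lists. The first held sensors and adaptors of ATM and ATR signalling, some of which are targets of these kinases. Of its 20 genes 19 were on the array (*Rad9a* was not). Of these, 4 were called higher (21.1%, against 5.58% of all genes) and 0 lower, with a median log2 ratio of 0.54. *Brca1* encodes a repair and checkpoint protein phosphorylated by ATM and ATR. It read 11.42, 11.73 and 11.06 in replicating samples against 7.32, 7.12 and 8.25 in quiescent ones. The fitted ratio was 3.84 (SE 0.45), and that of its other, dimmer probe was 1.11. *Timeless*, a fork protection factor that helps CHK1 activation, had a ratio of 2.53 (SE 0.32), and the preparations gave 2.44, 2.80 and 2.35. *H2afx*, the histone that ATM phosphorylates at breaks, had 3.22 (SE 0.63), and *Rad50*, of the complex that recruits ATM, had 1.43 (SE 0.42). The other genes of that complex were not called by their brightest probe. *Mre11a* had -0.04 (SE 0.58), with 2.00 at its other, dimmer probe, and *Nbn* had 0.04 (SE 0.41). *Topbp1*, which activates ATR directly, was not called, with a ratio of 0.16 (SE 0.32, limma p 0.629). None of the 19 passed the adjusted p. The median of this list was 0.17 and 0.14 under both scalings to the 75th percentile.

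The list of mitotic entry genes, which act on, beside or after WEE1, PKMYT1 and CDC25, gave the most calls. Of 16 genes 13 were called higher (81.2%, against 5.58% of all genes) and 0 lower (against 2.7%), and the median log2 ratio was 3.04. Within preparations 1, 2 and 3 it was 3.13, 3.15 and 2.77. *Cdk1*, the kinase that WEE1 and PKMYT1 inhibit, had a ratio of 4.38 (SE 0.42) and read 12.20, 11.42 and 12.10 against 7.23, 7.95 and 7.41. Its partner *Ccnb1* (cyclin B1) had 3.38 (SE 0.31), *Plk1*, the kinase that activates CDC25C and marks WEE1 for destruction, had 5.12 (SE 0.48), and *Mastl*, the kinase that restrains the phosphatase opposing CDK1, had 3.78 (SE 0.31). *Mastl* had the smallest adjusted p of the list, 0.105, and its other, dimmer probe had a ratio of 1.96. Those not called were *Ensa* (0.41), *Arpp19* (-0.35) and *Ppp2r2d* (0.79), the substrates of MASTL and a subunit of the phosphatase they restrain. Their other probes had ratios of -0.09, 0.80 and 0.82. Another subunit of that phosphatase, *Ppp2r2a*, was called higher (1.57, SE 0.54). The study singled out genes of this kind on these same samples, so the list is not independent evidence of its direction.

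Of 22 regulators that bind, degrade or modify CHK, WEE1 and CDC25 proteins, 2 were called higher (9.09%, against 5.58% of all genes) and 0 lower (against 2.7%), counts near those shares. Their median log2 ratio was 0.56. By preparation the medians were 0.47, 1.27 and -0.19. The called genes were *Melk* (2.61, SE 0.50), a kinase that phosphorylates CDC25B, and *Ywhah* (2.28, SE 0.68), an adaptor of the family that binds phosphorylated CDC25 proteins. Of the kinases related to ATM and ATR, 3 of 4 were on the array (*Prkdc* was not) and 0 were called. *Mtor*, the growth kinase, had a ratio of 0.75 (SE 0.38, limma p 0.105), *Smg1* had 0.39 and *Trrap* had 1.38 (limma p 0.116).

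**Figure D3:**
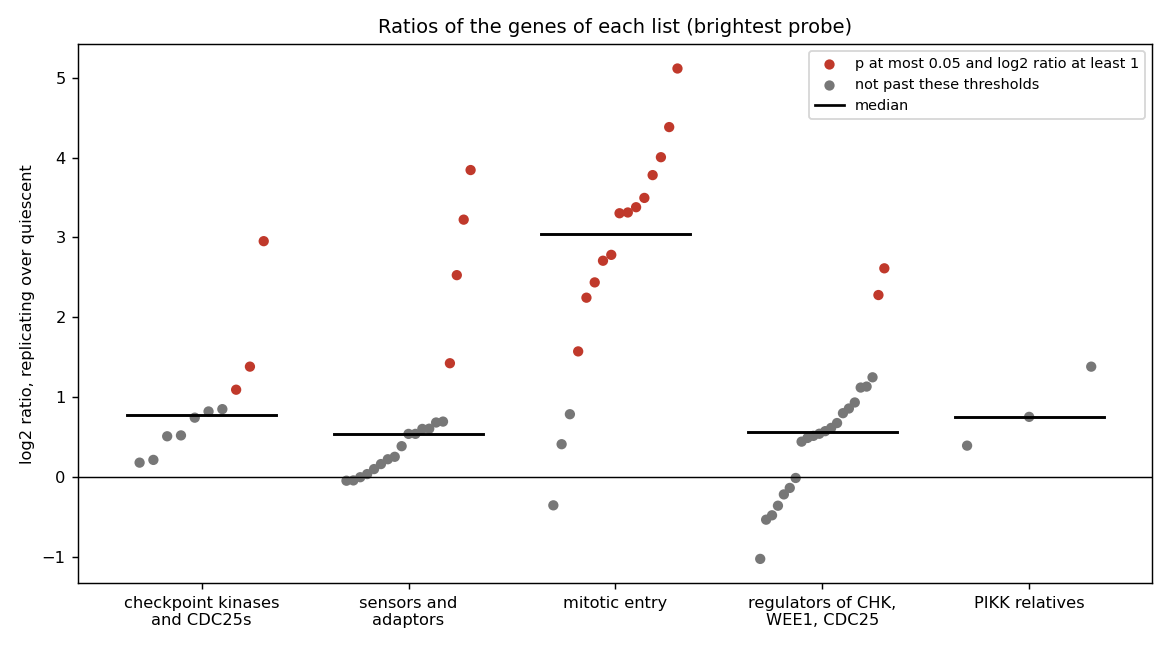
Fitted log2 ratio of replicating over quiescent (vertical axis) for each gene of 5 lists (horizontal axis), by its brightest probe. Red points passed both thresholds (unadjusted p 0.05, log2 ratio 1), grey points did not, and black lines are medians, which are 0.78 for the checkpoint kinases and CDC25 genes and 3.04 for the mitotic entry genes.

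Likeness of pattern was measured as the root mean square difference of log2 values over the 6 arrays, each probe centred on its own mean, among 22082 to 22084 probes with a symbol that were well above background in a group. Closest to *Pkmyt1* were *Smc4* (0.23), a condensin subunit, *Gtse1* (0.27), which also belongs to the mitotic entry list, and *Plek2* (0.27). Closest to *Wee1* were *Pias3*, *Mkrn1* and *Dpysl5* (each 0.11). For *Chek1* they were *Glt8d1* (0.06), *Ube3a* (0.09) and *Trak2* (0.09), and for *Chek2* *LOC103691349* (0.07), *Spata21* (0.09) and *Hmgb1* (0.09). The nearest to *Atm* were *Lrrc56* (0.07), *Tmem68* (0.09) and *Rnft1* (0.11), to *Atr* *Cnot7* (0.08), *Klf5-ps2* (0.11) and *Cspp1* (0.12), and to *Clspn* *Susd5* (0.11), *Ehf* (0.12) and *Irak3* (0.12). Among the phosphatases, *Cdc25a* was nearest to *Adm* (0.06), *Riiad1* (0.07) and *Fam117b* (0.07), and *Cdc25b* to *Pdlim4* (0.13), *Acss1* (0.13) and *Esco2* (0.14). *Cdc25c* had looser neighbours, *Msr1* at 0.23, *Kif23* at 0.34 and *Cdkn2d* at 0.35. With 6 arrays, a small distance to any 1 of so many probes is a description only.

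**Figure D4:**
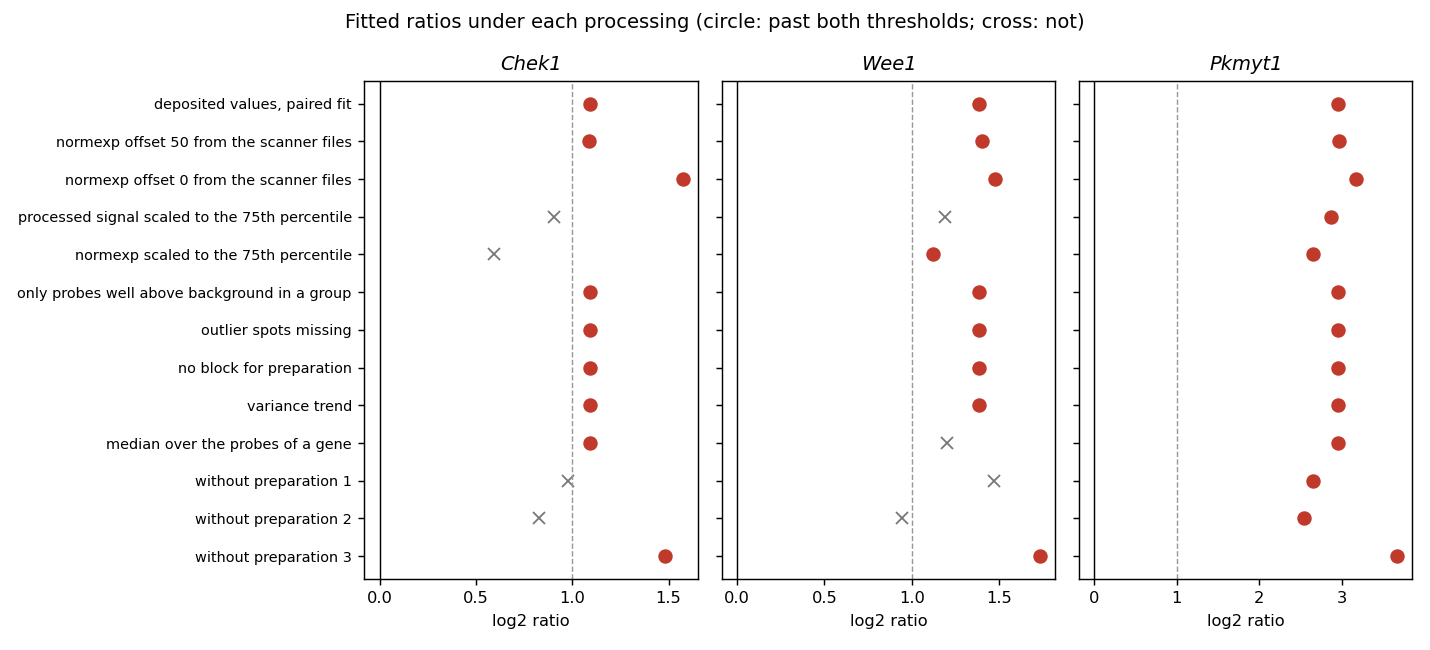
Fitted log2 ratio (horizontal axis) of *Chek1*, *Wee1* and *Pkmyt1* with the deposited values and under each other processing (vertical axis), with circles where both thresholds were passed, crosses where one was not, and a dashed line at a log2 ratio of 1. *Pkmyt1* is past both throughout, from 2.54 to 3.67, and *Chek1* and *Wee1* each fall short under 4 of the other 12.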

How the data were processed

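RNA of 6 sorted samples was extracted from fixed cells, amplified by whole transcriptome amplification, labelled with Cy3 and hybridised to 1-colour Agilent rat arrays of 60-base probes. The authors deposited each array's Feature Extraction intensity values, not normalized between arrays, and a log2 value for each spot, made by normexp background correction followed by quantile normalization. The log2 values were used here, matched by spot number. They differed from normexp (offset 50) and quantile values rebuilt from the intensity values by at most 0.12. No spot was saturated (0). Control spots were left out and the spots of a probe averaged (43279 probes with 1 spot, 969 with 2, 1350 with 10). Probe positions are those of the files, on rn4; exon annotation of that build was not used here.

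A paired model, as the study's methods describe, was fitted to every probe in limma 3.58.1 under R 4.3.3 (lmFit, then eBayes), with a block term for the islet preparation and Benjamini-Hochberg adjustment over 45598 probes. The pairing comes from the study's design; within preparations 1, 2 and 3, the residuals of both arrays around the group means correlated across probes with an r of 0.06, 0.23 and 0.25. All arrays lay on 1 slide. Files were read with version 1.17.8 of data.table and pandas 2.3.3 (Python 3.11.15), and figures drawn with matplotlib 3.10.9. The fit was also run on simulated arrays with known changes. Their noise had equal spread in both groups and no preparation effect. That run therefore cannot show how the fit behaves with the unequal spread of the real arrays.

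The text names all 10 genes with every probe, and of each other list the 4 lowest p in each direction among called genes. *Prkdc*, *Mtor*, *Cdk1*, *Ccnb1*, *Plk1*, *Brca1* and *Topbp1* are named whatever their values, as are the 3 nearest probes by pattern. *Mre11a*, *Nbn*, *Ensa*, *Arpp19*, *Ppp2r2a*, *Ppp2r2d*, *Smg1* and *Trrap* were added after their values were seen. The genes and lists were chosen with earlier results of these data known. The marker lists were β, α, δ and PP cells, fibroblast and stellate, endothelial, leukocyte, acinar, duct and cycling. Alternatives were normexp values from the scanner files with offsets of 50 and 0, processed signal or normexp values scaled to the 75th percentile, a filter for probes well above background throughout a group, outlier spots missing, no block, a variance trend in eBayes, a gene's per-array median over its probes, and each preparation left out.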

Additional observations from a re-analysis of the deposited data

How the results depend on the processing

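Quantile normalization holds the arrays to 1 distribution. Scaling to the 75th percentile instead moved the share of calls that were higher from 51.4% to 21.2% (normexp values) and 17.4% (processed signal), and it was 68.0% without the block, 45.7% at an offset of 0 and 88.7% without preparation 1. Of 120 fitted ratios of the 10 genes recomputed, 108 kept their direction and side of the thresholds. Part of this was fixed in advance. The filter, the missing outlier spots, the fit without a block and the variance trend left each fitted ratio as it was. The 7 genes with a ratio below 1 could not change there, nor could the ratio of a gene with 1 probe under the median over probes. Of 214 counts recomputed, 186 stayed within 1.5 times the reported count. *Pkmyt1* stayed past both thresholds in all 12 alternatives (p 4.1e-05 to 0.0246), and its adjusted p was 0.0138 with normexp values scaled to the 75th percentile. The fitted ratio of *Chek1* was 0.90 (p 0.186) with the processed signal and 0.59 (p 0.261) with normexp values scaled to the 75th percentile, and 0.82 to 1.48 with 1 preparation left out. That of *Wee1* was 1.19 (p 0.0989) with the processed signal, 1.20 (p 0.0769) with the median over probes, and 0.95 to 1.73 with 1 preparation left out. *Atm* ranged from 0.36 to 1.43 with 1 preparation left out. *Chek2* turned to -0.51 with the processed signal and to -0.36 with normexp values scaled to the 75th percentile, and *Clspn* to -0.48 with the median over probes. No mean pair difference changed sign under the 2 alternatives run for them.

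Of the 10 genes, 1 was called higher with the processed signal (*Pkmyt1*), and 1 to 4 with 1 preparation left out: *Pkmyt1* alone without preparation 1 or 2, and 4 genes, *Atm* among them, without preparation 3. Of the 10, 1 (*Pkmyt1*) passed the adjusted p with normexp values scaled to the 75th percentile. With every probe counted on its own, an alternative chosen after seeing the data, 3 were called. Of all probes, 647 were called higher with the processed signal and 509 to 4940 with 1 preparation left out (fewest without preparation 1, most without preparation 3). Lower calls were 3071 with the processed signal, 5498 with normexp values scaled to the 75th percentile, 879 without the replicate block and 65 to 5531 with 1 preparation left out. At the adjusted p, 312 probes passed with normexp values scaled to the 75th percentile, 92 without the replicate block, 32 with a variance trend and 0 to 80 with 1 preparation left out. Of the mitotic entry genes, 10 passed it with that scaling, 9 without the block, 2 with the trend and 0 to 7 with 1 preparation left out. Of the sensors, 3 passed it with that scaling and 1 without the block. Of the regulators, 1 was called lower with that scaling and 0 to 1 with 1 preparation left out, and 0 to 1 passed the adjusted p then. Of the ATM and ATR relatives, 1 was called higher at an offset of 0 and 0 to 1 with 1 preparation left out. The cause of these shifts was not tested. None of the 10 genes changed its call at the unadjusted p without the replicate block, where the 7 with a ratio below 1 could not.

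With 3 samples a group, the 95% intervals of the 7 uncalled genes had upper bounds of 1.01 to 2.31 on the log2 scale, and a missed threshold does not show equal levels. The 3 probes not well above background on every array were the dimmest *Atm*, *Chek2* and *Clspn* probes.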
